A study of Mus musculus with 16 samples.

Results

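The 7 genes described here, Ly6c2, Ccr2, Plac8, Chil3, Vcan, Fn1 and Nr4a1, are known from monocytes that leave the blood and enter tissue. They were taken by name from 18576 genes measured in 16 libraries of cells sorted from the mouse brain. The libraries came from CD163KO mice, which carry the allele CD163tm1.1(KOMP)Vlcg in every cell and lack the haemoglobin scavenger receptor CD163, and from WT C57BL/6N littermates. The mice were 12 weeks old at surgery, received murine α-synuclein into both striata, either as monomers (MONO) or as pre-formed fibrils (PFF), and were examined 2 months later, so that no group was left without injection. From brains of each sex, genotype and treatment, microglia (CD11b+ with low or intermediate CD45) and macrophages (CD11b+ with high CD45) were sorted, and 1 library table of each population was analysed for each of the 8 combinations. The macrophage gate does not separate macrophages of the brain borders from those that came from the blood, and also takes neutrophils and NK cells. The study left the male CD163KO MONO group out of its comparisons. Its 2 libraries are therefore shown among the levels and entered no fit, other than alternatives that are named as including them.

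Classical monocytes of the mouse are recognised by Ly6C on their surface and by the chemokine receptor CCR2, through which Ccl2 and its relatives draw them out of the bone marrow and into inflamed tissue. In the blood they can convert into patrolling, nonclassical monocytes that lose Ly6C and depend on the nuclear receptor Nr4a1. In the healthy brain, microglia descend from yolk sac precursors, not from blood monocytes, and the genes of classical monocytes are therefore used to tell recently arrived cells from resident ones.

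The libraries held between 8648751 and 18768238 estimated counts in microglia and between 12170686 and 21433841 in macrophages. The sort was checked against fixed markers. Summed FPKM of 12 homeostatic microglia genes was 82628 to 310986 in microglia and 8457 to 12863 in macrophages, that of 12 genes of border-associated macrophages 40.6 to 239 and 1991 to 5276, that of 12 neutrophil genes 952 to 2732 and 22169 to 134671, and that of the NK and T cell genes 0.37 to 5.91 and 50.7 to 225. Lists for dendritic cells (27.2 to 91.9 and 744 to 1903), endothelium (7.74 to 84.5 and 36.1 to 207), choroid plexus (263 to 2523 and 84.9 to 12617) and fibroblasts with oligodendrocyte precursors (at most 6.21 and 44.7, with Lum at 0 in every microglia library) were measured in the same way. Cd163 had 748 to 5275 counts in WT and 0 to 1 in CD163KO macrophages, but 0 to 101 in WT and 5 to 23 in CD163KO microglia, where it did not separate the genotypes. The male CD163KO MONO and the male WT PFF libraries stood apart in both populations. As macrophages they listed 11800 and 9524 transcripts against 13819 to 16626 in the others. As microglia they gave 18.3% and 19.7% of their counts to Cst3 against 4.63% to 5.54%. The female CD163KO MONO microglia held 799 counts of Y-linked genes, while the other female microglia held at most 2.

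Ly6c2 is the member whose reads are hardest to place, because its neighbour Ly6c1 is nearly a copy. Over the 393 coding bases, the reference sequences of the pair were identical at 97.71%, with 9 substitutions and a shared run of 188 bases. The first 120 coding bases are shown with the positions that differ in capitals, since 6 of the 9 substitutions (G8C, A10T, G16A, T31G, G36C and G65A, Ly6c2 first, counted from the first coding base) lie there. Both come from GENCODE (GRCm38.p6) and cross an intron, Ly6c2 between chr15:75110578-75111667 and Ly6c1 between chr15:75047420-75048511, both on the minus strand.
Ly6c2: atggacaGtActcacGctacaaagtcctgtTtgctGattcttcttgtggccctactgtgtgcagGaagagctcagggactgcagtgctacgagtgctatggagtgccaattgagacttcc
Ly6c1: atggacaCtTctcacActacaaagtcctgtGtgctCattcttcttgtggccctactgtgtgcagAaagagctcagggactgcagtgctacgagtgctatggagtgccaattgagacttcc
A read from a stretch where the genes are alike fits both, and the estimated counts divide it by a model. Values of Ly6c2 are uncertain to that extent. The other 3 coding substitutions lie further on (A254G, C327T and A376G), and the untranslated parts were not compared. The same holds, to a lesser degree, for Chil3 with Chil4 (coding identity 94.44%, longest shared run 136 bases). Levels of the copies were Ly6c1 4.90 to 47.4 FPKM in macrophages and 0 to 12.1 FPKM (median 4.17) in microglia, where it lay above the median of Ly6c2 (1.42), and Chil4 at most 0.47 FPKM in any library.

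The stretch before the start of transcription is shown for a pair of members with different motifs, Nr4a1, an immediate early gene, and Ly6c2, a gene of myeloid cells. Capitals mark TGCGTCA (a relative of the AP-1 and CRE motifs) in Nr4a1 and GAGGAAGT (a form of the PU.1 motif) in Ly6c2, each searched on both strands. Also searched were TGACGTCA, TTGCGCAA, TGAGTCA and TATAAA. The letters were chosen after the sequences were seen. The Nr4a1 window is chr15:101266596-101266845 (plus strand) and the Ly6c2 window chr15:75111972-75112221 (minus strand), each the 250 bases before a RefSeq start in GRCm38.p6.
Nr4a1: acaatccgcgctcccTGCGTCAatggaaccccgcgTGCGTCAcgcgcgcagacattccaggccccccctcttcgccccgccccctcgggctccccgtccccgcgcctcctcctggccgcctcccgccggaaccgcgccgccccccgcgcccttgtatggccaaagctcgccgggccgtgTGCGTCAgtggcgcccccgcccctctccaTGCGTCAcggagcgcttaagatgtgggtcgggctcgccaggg
Ly6c2: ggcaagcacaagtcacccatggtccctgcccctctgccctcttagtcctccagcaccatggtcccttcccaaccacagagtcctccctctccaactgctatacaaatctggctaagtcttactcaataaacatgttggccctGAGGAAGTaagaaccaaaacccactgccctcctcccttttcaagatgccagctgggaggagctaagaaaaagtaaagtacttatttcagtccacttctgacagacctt
The Nr4a1 window held 4 matches to TGCGTCA, at bases -235, -215, -71 and -42 from the start. Over 32851 promoter windows of 300 bases, 2.116% held at least 1 match and 1 window held 4 or more. GAGGAAGT stood at base -108 of Ly6c2, with another match 26 bases after the start, and at least 1 match was present in 3.202% of the windows. Of the 7 members, 6 had a promoter in the table, Fn1 being the exception. A match describes the letters and not a binding site.

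The RNA of the monocyte genes lay mainly in macrophages. Of the 7 members, 6 were called higher in macrophages (an adjusted p of at most 0.05 and a log2 fold change of at least 1 by edgeR's quasi-likelihood test with Benjamini-Hochberg adjustment, in 14 libraries with the combination as a block), where 12.3% of 12135 genes tested were called higher and 19.7% were called in either direction. Log2 fold changes ran from 3.24 for Nr4a1 to 9.66 for Plac8, against a median of -0.30 over all genes. The macrophages were sorted from fewer cells (10000 to 30000, against 200000 to 500000 microglia), so that population and input cannot be told apart. With the library size as the only scale the median of all genes moved to -1.94, and the calls over all genes turned from 1491 higher and 896 lower to 580 higher and 5592 lower. The same 6 members were still called. As deposited, the FPKM of 5 members did not overlap between the 8 macrophage and the 8 microglia libraries, a pattern that 2.38% of 12132 genes showed with macrophages higher. In bulk libraries, fewer cells of a type and less RNA per cell cannot be told apart.

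**Figure D1:**
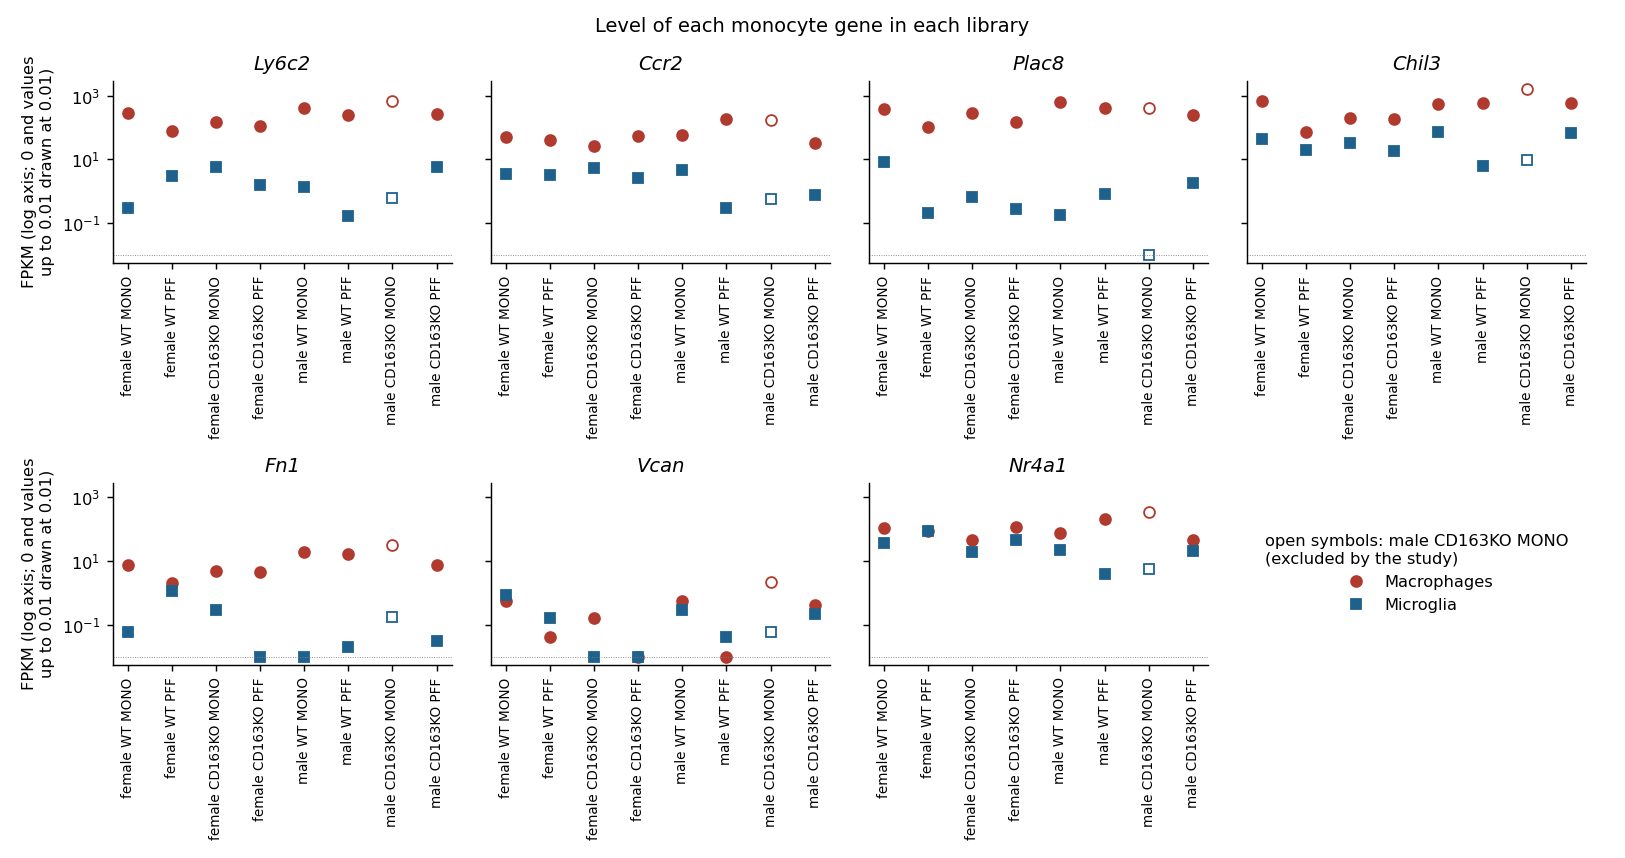
FPKM of the 7 members in each library (log axis, values of 0 drawn at 0.01), macrophages beside microglia, with open symbols for the male CD163KO MONO libraries. Ly6c2, Ccr2, Plac8, Chil3 and Fn1 do not overlap between the populations, although Chil3 comes close (71.2 against 70.4).

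Ly6c2 encodes a small GPI-anchored protein that, with Ly6c1, makes up the Ly6C antigen. Its FPKM in macrophages was 78.5 at the lowest (PFF-WT females), 256 at the median and 694 at the highest (male CD163KO MONO). In microglia it was 0.17, 1.42 and 5.72. All macrophage libraries lay far above all microglia libraries, whose counts of 2 to 72.4 reads leave their own order open. The log2 fold change was 8.29 (SE 0.57, adjusted p = 5.1e-06). Other genes of the Ly6 family were also higher in macrophages, 6 of the 6 tested, among them Ly6c1 (3.92), Ly6a (3.22) and the neutrophil antigen gene Ly6g (8.57).

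Ccr2 encodes the receptor that brings classical monocytes out of the marrow. Macrophages held 26.1, 53.8 and 189 FPKM (lowest, median and highest, the last in PFF-WT males). Microglia held 0.30, 2.92 and 5.35 FPKM. No microglia library came within reach of the lowest macrophage library, and the log2 fold change was 6.00 (SE 0.48, adjusted p = 1.3e-05). The ligands moved to the same side, with Ccl2 (5.17), Ccl7 (7.96), Ccl8 (8.43) and Ccl12 (4.28) all called higher in macrophages. Ccl12, a mouse ligand of CCR2, reached 2173 FPKM in macrophages and at most 212 in microglia. The chemokine receptor genes Ccr1 (4.35) and Ccrl2 (1.08) were also called higher, and Ccr3 was not called. For Ccrl2 this hangs on the scale, since its median FPKM as deposited was 27.2 in macrophages and 32.7 in microglia.

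Plac8 encodes a small cysteine-rich protein of classical monocytes and granulocytes, and Chil3 the chitinase-like lectin Ym1, which monocytes, neutrophil precursors and alternatively activated macrophages secrete. Plac8 ran from 103 through 332 to 646 FPKM in macrophages, and from 0 through 0.47 to 8.33 FPKM in microglia. The microglia value rested on 87 counts over 8 libraries, 46 of them in MONO-WT females, and the library at 0 allows up to 3 counts. Its log2 fold change of 9.66 (SE 0.79, adjusted p = 1.4e-05) was the largest of the members and depends on those few counts. Chil3 was the most abundant member in both populations, with 71.2, 555 and 1592 FPKM in macrophages. In microglia it stood at 6.17, 26.5 and 70.4 FPKM. Chil3 and Nr4a1 were thus the members above 1 FPKM in every microglia library. The fold change of Chil3 was 4.87 (SE 0.27, adjusted p = 1.4e-06), beside 6.19 for its relative Chil1, while Chil4, Chia1 and Chit1 were too low to be tested. Neutrophils also use Chil3, and their 12 marker genes were all called higher in macrophages. The part of neutrophils in the Chil3 and Plac8 values was not tested.

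Fn1 and Vcan encode matrix proteins, the glycoprotein fibronectin and the proteoglycan versican, which classical monocytes express more than other blood cells. Fn1 was modest, with 2.12, 7.56 and 31.0 FPKM in macrophages and 0, 0.045 and 1.18 in microglia. Of its 223 counts in microglia 151 were in PFF-WT females and 2 libraries held none. The log2 fold change was 8.33 (SE 1.17, adjusted p = 0.00052), and ranged between 2.81 and 9.13 over the alternative settings. Vcan was at the limit of detection. It reached 2.13 FPKM in macrophages and 0.88 FPKM in microglia, with medians of 0.295 and 0.11. Of 665 macrophage counts 502 were in the male CD163KO MONO library, which entered no fit. Its log2 fold change of 2.12 (SE 1.74, adjusted p = 0.424) was not called, over libraries with between 0 and 57 counts. Among 7 genes tested for receptors of these proteins, Cd44 (5.37) and Itga4 (2.86) were called higher in macrophages and Itgb3 (-4.19) lower. Of 7 other proteoglycan and matrix genes 2 could be tested, the brain proteoglycan genes Ncan (0.03) and Bcan (0.32), and 0 were called by edgeR or were at an unadjusted p under 0.05.

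Nr4a1, the nuclear receptor that nonclassical monocytes need, had the smallest difference of the 6 members called. Macrophages held 45.1, 99.4 and 353 FPKM. Microglia held 4.05, 21.1 and 89.0 FPKM, and thus overlapped with them. As an average over the matched combinations, the edgeR fit gave a log2 fold change of 3.24 (SE 0.23, adjusted p = 6.0e-06). Over the alternatives this value lay between 1.65 and 3.44. In PFF-WT females the FPKM as deposited was level, at 88.3 in macrophages and 89.0 in microglia. Nr4a1 is also an immediate early gene, and of 12 such genes 6 were called higher in macrophages, including Fos (3.27), Dusp1 (3.17) and Ier2 (2.57). Egr1 did not reach the limit of fold change (0.80, adjusted p = 0.0342). The part of immediate early transcription in the Nr4a1 values was not tested. Nr4a2 was called higher (6.14) at no more than 8.85 FPKM, and Nr4a3 was too low to be tested.

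**Figure D2:**
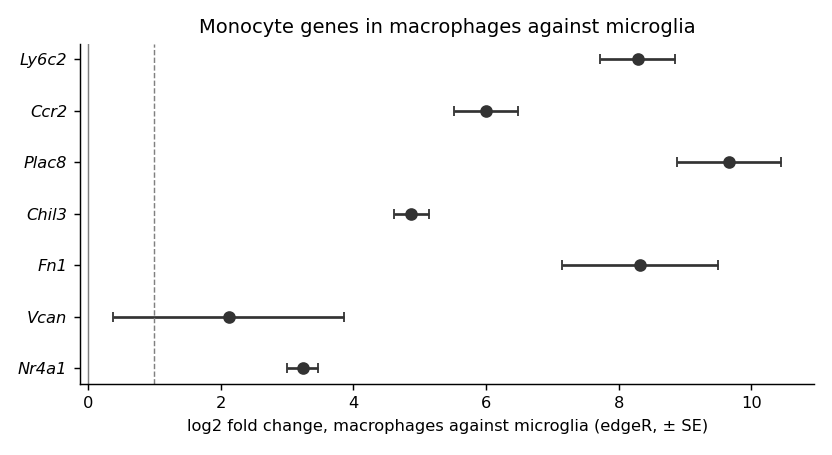
Log2 fold change of macrophages over microglia for each member (points) with its standard error (bars), by edgeR in 14 libraries, with a dashed line at 1. Vcan alone is not called, at 2.12 with an SE of 1.74, and Plac8 is highest at 9.66.

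The other monocyte genes followed the members. All 12 further genes of classical monocytes were called higher in macrophages, with a median log2 fold change of 7.32. F13a1, the A subunit of coagulation factor XIII, was higher by 7.51 and ran from 39.3 to 492 FPKM in macrophages against 0.04 to 3.69 in microglia. It is also a gene of border-associated macrophages. Of 12 genes of nonclassical monocytes 9 were called higher, among them Treml4 (10.10), Spn (8.43), which encodes CD43, and Ace (5.44). Pou2f2, Eno3 and Gngt2 were not called. Genes of both kinds of monocyte were thus higher in macrophages. So were markers of other cells that the gate takes. Of 12 neutrophil genes 12 were called higher (median 7.32), and of 12 genes of border-associated macrophages 11 were (median 7.11). Among transcription factors of the lineage Cebpb (6.44), Spi1 (1.35) and Klf2 (1.21) were called higher in macrophages while Cebpa (-1.76) and Irf8 (-1.02) were called lower. The direction of Spi1 and Klf2 hangs on the scale. As deposited, their median FPKM was lower in macrophages (Spi1 200 against 215 in microglia, Klf2 24.0 against 30.9). Klf4 and Zeb2 were not called.

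By FPKM, which compares genes per length, the members in macrophages fell in the order Chil3, Plac8, Ly6c2, Nr4a1, Ccr2, Fn1 and Vcan. The upper part of the order was not fixed. Chil3 exceeded Plac8 in 5 of 8 libraries, and Plac8 exceeded Ly6c2, as Ly6c2 exceeded Nr4a1, in 6 of 8. Nr4a1 over Ccr2, Ccr2 over Fn1 and Fn1 over Vcan held in 8 of 8. In microglia the order was Chil3, Nr4a1, Ccr2, Ly6c2, Plac8, Vcan and Fn1, with only Nr4a1 over Ccr2 held in 8 of 8. Within the macrophages the highest library exceeded the lowest 22.4 times for Chil3, 14.6 times for Fn1 and between 6.26 and 8.83 times for Ly6c2, Ccr2, Plac8 and Nr4a1. The highest Chil3 and Fn1 were those of the male CD163KO MONO library, and without it the ratios were 9.63 and 9.20. Those of Ly6c2 and Nr4a1 became 5.22 and 4.79. After TMM scaling, and without that library, they ran from 2.46 for Ccr2 to 6.50 for Chil3.

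To ask whether fibrils changed the monocyte genes, PFF was set against MONO within each population, with genotype and sex as further terms and 7 libraries a population. Since each combination has 1 library table, p-values measure the spread of these tables after these terms, not that between animals. In macrophages 0 of 7 members were called by edgeR, and 0.0% of 11302 genes were, with 133 genes at an unadjusted p under 0.05 and 34 called by DESeq2. No member was called by any tool. At an unadjusted p under 0.05, but not called, were Nr4a1 (0.94, SE 0.29) and Ccr2 (0.80, SE 0.29) on the side of PFF, and Plac8 (-0.93, SE 0.34) on the side of MONO. These are edgeR log2 fold changes, and the adjusted p of the members was at least 0.759 in every contrast fitted over the 7 libraries of a population. Without the male WT PFF library Nr4a1 was 0.93 and Plac8 -0.81, still under that unadjusted limit, and Ccr2 was 0.68, above it. With the male CD163KO MONO library added, they were 0.35, -0.57 and 0.47.

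The pairs behind these values are given in TMM-scaled FPKM, FPKM divided by edgeR's TMM factor. Ly6c2 went from 280 to 164 between MONO and PFF in WT females, from 224 to 128 in CD163KO females and from 320 to 129 in WT males. It was lower with PFF in all 3 pairs. Plac8 went from 369 to 215, from 431 to 166 and from 504 to 215 in the same order, again lower in 3 of 3. Chil3 went from 668 to 149, from 296 to 212 and from 414 to 299, lower in 3 of 3 on this scale. Fn1, from 7.26 to 4.42, from 7.33 to 5.05 and from 15.2 to 8.30, was lower in 3 of 3 as well. Ccr2 ran the other way, from 50.1 to 82.0, from 39.5 to 62.5 and from 46.6 to 97.4. Nr4a1 did too, from 108 to 184, from 68.3 to 135 and from 57.5 to 111. The direction of Ccr2, Nr4a1 and Chil3 hangs on the scale. In FPKM as deposited Ccr2 and Nr4a1 were higher with PFF in 2 of 3 pairs and lower in WT females (Ccr2 51.4 and 39.3, Nr4a1 110 and 88.3 FPKM). Chil3 was lower in 2 of 3 and higher in WT males (531 and 582 FPKM).

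The excluded male CD163KO pair went against the others for 5 of 7 members. With PFF, Plac8 was 1.20, Ly6c2 0.51 and Chil3 0.47 higher on the scale of log2(TMM-scaled FPKM + 1), and Nr4a1 (-0.99) and Ccr2 (-0.48) were lower. Fn1 (-0.08) and Vcan (-0.17) lay on the same side as in the other pairs. Past a difference of 1 on that scale were Chil3 in WT females (-2.16, 1 of 6 members compared, against 15.9% of all genes), Plac8 in CD163KO females (-1.37, 1 of 6, against 19.7%), and Ly6c2 (-1.30), Plac8 (-1.22) and Ccr2 (1.05) in WT males (3 of 6, against 62.7%). Of these shares, 2 were near that of all genes and that of WT males was below it.

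The summed levels of markers of other cells differed between the libraries of these pairs, although no neutrophil or immediate early gene was called. The summed TMM-scaled FPKM of the 12 neutrophil genes in macrophages went from 118074 to 46251 in WT females, from 149558 to 36628 in CD163KO females and from 92560 to 36796 in WT males, and from 36027 to 224140 in the excluded CD163KO males. It fell where Plac8 and Chil3 were lower and rose where they were higher. By edgeR 0 of 12 were called (median -0.87, over all genes -0.12). The summed immediate early genes, which share their pattern with Nr4a1 in the 3 pairs, went from 5745 to 14015, from 5060 to 8234 and from 2119 to 4064, and in the excluded pair from 3200 to 7528. Here 0 of 12 were called by edgeR, with a median of 1.12, and Jun (1.44) and Egr1 (1.06) had the smallest unadjusted p. The part of these cells and of immediate early transcription in the treatment values was not tested. The other classical monocyte genes had a summed level of 1813 and 1481, of 2352 and 1358 and of 2328 and 1748 for MONO and PFF, and of 1503 and 2268 in the excluded pair.

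**Figure D3:**
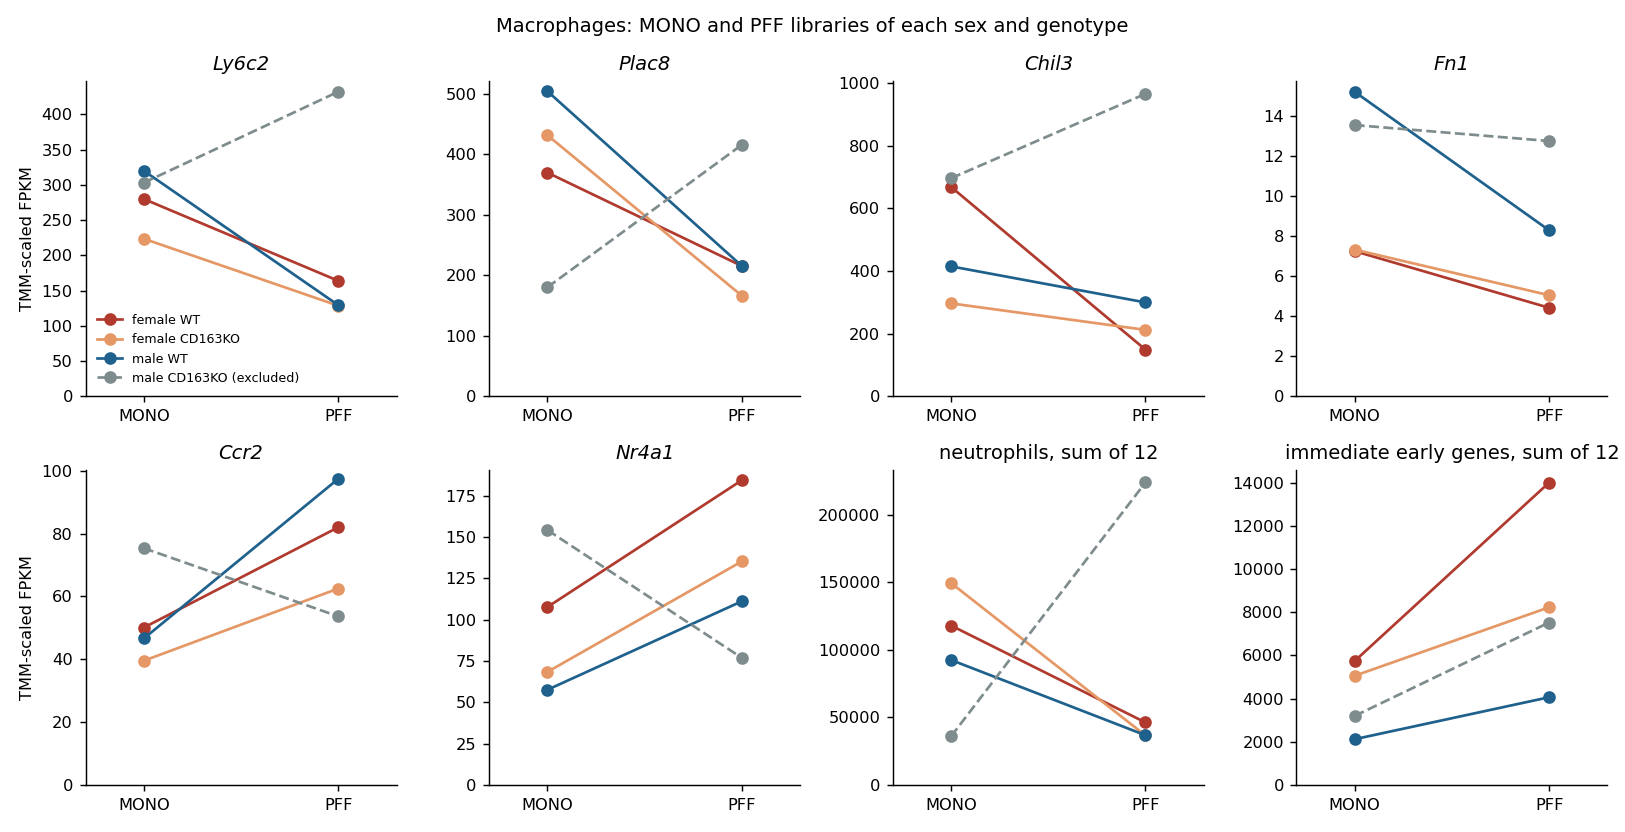
TMM-scaled FPKM of the members other than Vcan in macrophages given MONO and PFF, with a line for each of the 4 combinations of sex and genotype (dashed grey for the excluded CD163KO males), and in the last panels the summed neutrophil and immediate early genes. Ly6c2, Plac8 and the neutrophil sum fall along the 3 full lines, while Ccr2, Nr4a1 and the immediate early sum climb.

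Microglia gave no call for the members either (0 of 7 by edgeR, with 0.0% of 12148 genes called, 738 genes at an unadjusted p under 0.05 and 39 called by DESeq2). Nr4a1 stood at 0.94 (SE 0.35) and Chil3 at -0.88 (SE 0.36) by edgeR, the members under that unadjusted limit. Without the female CD163KO MONO library, whose Y-linked counts go against its label, Nr4a1 was 0.66, above that limit, and Chil3 -1.15, and without the male WT PFF library Nr4a1 was 1.22 and Chil3 -0.70. In TMM-scaled FPKM, Nr4a1 went from 25.0 to 66.7 between MONO and PFF in WT females, from 13.9 to 35.0 in CD163KO females and from 15.9 to 14.1 in WT males. Chil3 went from 31.4 to 14.9, from 24.6 to 13.5 and from 50.9 to 21.4, lower with PFF in 3 of 3. The scale matters in WT males, whose PFF library had a TMM factor of 0.288. As deposited, their FPKM fell further, from 21.9 to 4.05 for Nr4a1 and from 70.4 to 6.17 for Chil3. The immediate early genes Junb (1.77) and Fos (1.24) lay on the same side as Nr4a1 at an unadjusted p under 0.05. Ccr2 differed from its course in macrophages, with TMM-scaled FPKM of 2.50 and 2.45, 3.98 and 1.93, and 3.46 and 1.04 for MONO and PFF. The WT females thus hardly differed. Between the populations its PFF effect differed by 1.98 (SE 0.54) in an edgeR interaction that was added after seeing the data with an adjusted p of 1, and 0 of 12135 genes were called there, with 160 at an unadjusted p under 0.05. Of the members compared in single pairs, 4 of 6 were past a difference of 1 in WT females (15.0% of all genes), 2 of 4 in CD163KO females (17.7%) and 2 of 4 in WT males (31.1%). Those of Ly6c2 and Plac8 rest on few reads, as for Ly6c2 in WT females, which had 2 and 36.3 counts.

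CD163KO was set against WT to ask whether loss of the receptor changes the monocyte genes. None of the 7 members was called by edgeR in macrophages (0.00885% of 11302 genes, namely Cd163 itself, at -11.34 with an adjusted p of 0.0166, named after its values were seen, with 82 genes at an unadjusted p under 0.05 and 18 called by DESeq2). Log2 fold changes of the members lay between -0.55 and 0.83, with a lowest unadjusted p of 0.0922. In TMM-scaled FPKM, Ly6c2 was 224 in CD163KO and 280 in WT MONO females, 128 and 164 in PFF females, and 432 and 129 in PFF males. As deposited, the pair of PFF females turned (115 and 78.5 FPKM) and that of PFF males was nearly level (260 and 251 FPKM). Ccr2 and Nr4a1 were lower in CD163KO in 3 of 3 pairs and Fn1 was higher in 3 of 3 on the TMM scale, the differences being -0.33, -0.39 and -0.85 for Ccr2, -0.65, -0.44 and -0.53 for Nr4a1, and 0.01, 0.16 and 0.57 for Fn1 on the log2(TMM-scaled FPKM + 1) scale. In FPKM as deposited each kept that side in fewer pairs (2, 2 and 1 of 3). The genotypes overlapped for every member, while 0.652% of 11354 genes did not overlap in FPKM. Single pairs passed a difference of 1 on the log2(TMM-scaled FPKM + 1) scale for Chil3 in MONO females (-1.17, 1 of 6 members, 19.8% of genes) and for Ly6c2 (1.73) and Chil3 (1.69) in PFF males (2 of 6, 62.9%), and 0 of 6 in PFF females (18.3%). In microglia 0 of 7 were called and 0.0% of all genes (150 at an unadjusted p under 0.05, 11 called by DESeq2), the lowest unadjusted p of a member being 0.0527. Microglia pairs past 1 were 2 of 5 in MONO females (26.1%), 0 of 5 in PFF females (8.16%) and 2 of 4 in PFF males (17.2%). The PFF effect was not called different between genotypes for any member, with 0.0% of genes called by edgeR in either population (51 in macrophages and 511 in microglia at an unadjusted p under 0.05, 10 and 30 called by DESeq2).

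Sex separated Fn1. Its FPKM in macrophages was 2.12, 4.54, 4.84 and 7.45 in females and 7.67, 16.1, 19.5 and 31.0 in males, with no overlap, and 4.42 to 7.33 against 8.30 to 15.2 when scaled by TMM. The highest male FPKM is that of the excluded CD163KO MONO library. Of 11354 genes, 1.52% had males above females without overlap in FPKM and 1.44% after scaling. In either direction, 2.57% and 3.92% did not overlap. By edgeR, in 7 libraries, Fn1 was 1.12 higher in males (SE 0.33, unadjusted p under 0.05) and was not called. The other member at an unadjusted p under 0.05 was Nr4a1, which stood at -0.83 (SE 0.28) by edgeR. Over the alternatives Fn1 lay between 0.95 and 1.72, and Nr4a1 between -0.87 and -0.20. The lowest size of Nr4a1 came from limma on log2(FPKM + 1), and with the male CD163KO MONO library it was -0.28. None of the 7 was called, nor were any of the 11302 genes (0.0%, with 159 at an unadjusted p under 0.05 and 43 called by DESeq2). In microglia, where 0.0% of genes were called as well (212 and 28), Chil3 stood at 1.15 (SE 0.34) and Nr4a1 at -1.22 (SE 0.34) by edgeR, both at an unadjusted p under 0.05. They were 1.04 and -1.35 without the female CD163KO MONO library and 1.35 and -0.94 without the male WT PFF library. The neutrophil genes S100a8 (1.80) and Ngp (1.52) lay on the side of Chil3, and Egr1 (-1.14) on the side of Nr4a1. Their part in these values was not tested.

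The members did not vary as 1 block across the 8 macrophage libraries. Pearson's r of log2 TMM-scaled CPM (CPM, the count over the scaled library total, with a prior count of 2), here a description over libraries that share scaling and sort, was 0.897 for Ly6c2 with Vcan, 0.842 for Ly6c2 with Chil3, 0.761 for Chil3 with Fn1 and 0.76 for Ly6c2 with Fn1. Ccr2 and Nr4a1 formed another pair, at 0.751. Plac8 ran against both, at -0.774 with Ccr2 and -0.879 with Nr4a1, and stood at 0.651 with Ly6c2. The values of Vcan rest on 0 to 57 counts in the libraries other than male CD163KO MONO, which held 502. Over 11356 genes, those most like each member were Tfb1m (0.949), E2f8 (0.949) and Glipr2 (0.936) for Ly6c2, Pttg1ip (0.973), Gnaq (0.958) and Icosl (0.957) for Ccr2, and Foxm1 (0.980), S100a10 (0.974) and Kif11 (0.966) for Plac8. Foxm1 and Kif11 are genes of dividing cells. Chil3 was nearest to Glrx (0.929), Oga (0.907) and Gsdme (0.905), and Vcan to Def8 (0.954), Gabbr1 (0.952) and Tfb1m (0.949). Fn1 was nearest to Tsc22d2 (0.906), Upf1 (0.899) and Tubgcp4 (0.893), and Nr4a1 to Tpp1 (0.941), Slc8b1 (0.939) and Clptm1 (0.934). These genes were the highest of a search over all genes in only 8 libraries.

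**Figure D4:**
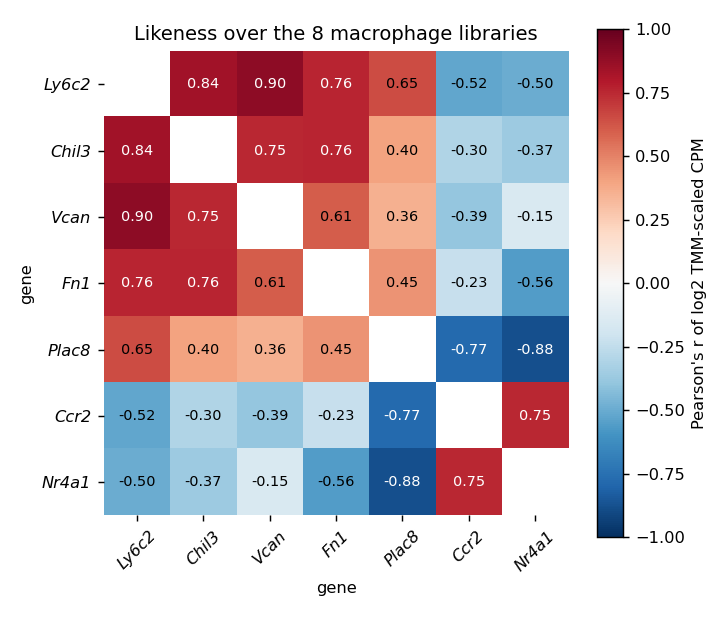
Pearson's r between the members over the 8 macrophage libraries, on the scale of log2 TMM-scaled CPM, coloured from -1 to 1. The highest value is that of Ly6c2 with Vcan (0.897), Ccr2 and Nr4a1 stand at 0.751, and Plac8 lies opposite to both while standing at 0.651 with Ly6c2.

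Forms of a gene could be told apart for 3 members. Ly6c2 was read from 2 transcripts, with 90.7% of its macrophage counts on 1 of them. Fn1 was spread over 7 transcripts, led by forms with 56.5% and 23.2% of the macrophage counts. Vcan gave 76.1% of its macrophage counts to 1 form of 12432 bases, nearly all of them from the male CD163KO MONO library. The members lie at chr15:75108161-75112066 (Ly6c2), chr9:124101918-124109140 (Ccr2), chr5:100551589-100572253 (Plac8), chr3:106147554-106167564 (Chil3), chr13:89655309-89743027 (Vcan), chr1:71585473-71653280 (Fn1) and chr15:101253902-101274795 (Nr4a1) in GRCm38.p6.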

How the data were processed

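RNA of sorted cells was sequenced by SMART-seq2, and 1 table for each of 16 combinations of population, sex, genotype and treatment was used. Whether a table holds 1 library or pooled triplicates is not given in the sources used here, nor is the batch of a library, so that batch and group cannot be told apart. The authors mapped reads to transcripts of mouse (mm10) with Bowtie2 and made the estimated counts with RSEM, deposited without normalization. For FPKM, the authors further scaled each transcript to its length and to the reads assigned in the library. Only transcripts above 0 are listed, and others were taken as 0.

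Of 27787 RefSeq transcripts, 27627 (99.4%) had a symbol and were summed to 18576 genes, and counts were then rounded. Genes with a mean count of at least 10 were fitted by edgeR 4.0.16 (TMM factors, quasi-likelihood) in R 4.3.3, over 14 libraries between populations (the combination as a block) and over 7 libraries within one (treatment, genotype and sex). A call needed an adjusted p of at most 0.05 and a log2 fold change of at least 1. Single pairs used log2(TMM-scaled FPKM + 1), over genes with 1 FPKM in either library. Alternatives used DESeq2 1.42.0, limma 3.58.1 on log2(FPKM + 1), other factors, filters, pseudocounts and sets of libraries. Fits were tested on simulated data. Tables and figures were made with Python 3.11.15, pandas 2.3.3, Biopython 1.88 and matplotlib 3.10.9.

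The text names the 7 members, genes of pathway lists that were called or are relatives of a member, the 3 genes most like each member, and transcripts with at least 5% of a member's counts. Members and lists were chosen with earlier results of these data known. A result that this rule would name is not reported here.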

Additional observations from a re-analysis of the deposited data

Results flagged for a closer look

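In 5 of 14 groups of 8 libraries (7 members in each population) the highest library stood apart from the rest by Dixon's test on FPKM as deposited. That test flags about 1 in 20 groups by chance where values are normally distributed, which was not examined for FPKM. Chil3 reached 1592 FPKM in male CD163KO MONO macrophages, the group that the study excluded, and Vcan 2.13 FPKM in the same library. Both stand apart only as deposited, since that library has a TMM factor of 2.29. After scaling its Chil3 was 696 TMM-scaled FPKM, below the 965 of PFF-CD163KO males, and its Vcan was 0.93 against 0.72 there. In microglia Plac8 was 8.33 FPKM and Vcan 0.88 FPKM in MONO-WT females, and Fn1 was 1.18 FPKM in PFF-WT females. The microglia values rest on few counts. After scaling, Plac8 was 5.79 TMM-scaled FPKM in MONO-WT females and 2.92 in PFF-WT males, the next library, which falls short of Dixon's limit.

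Ccr2 moved in opposite directions in the populations, as the mean of the 3 pairs of PFF minus MONO on the log2(TMM-scaled FPKM + 1) scale was 0.80 in macrophages, higher in 3 of 3 pairs, and -0.64 in microglia, lower in 3 of 3. The microglia pairs were -0.02 in WT females, -0.77 in CD163KO females, whose MONO library holds the Y-linked counts, and -1.13 in WT males, whose PFF library stands apart, so that the mean rests on 2 pairs with such libraries. In the excluded male CD163KO pair it was lower in both populations (-0.48 and -0.35). In FPKM as deposited it was higher in 2 of 3 macrophage pairs. The edgeR interaction, added after seeing the data, gave 1.98 (SE 0.54) with an adjusted p of 1.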

How the results depend on the processing

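Between the populations, 6 of 7 members were called under each of 18 alternatives, and the calls over all genes ran from 1752 to 6461 (2387 as reported, 4039 without male WT PFF). In the 8 contrasts within a population 0 members were called by edgeR, DESeq2 or limma under any alternative that could be fitted. Of the 56 results for single members there, 25 changed direction under at least 1 alternative. None of the 9 at an unadjusted p under 0.05 did, although their size shrank, for Nr4a1 between the sexes in macrophages to -0.20. Over all genes, the calls for the difference in PFF effect between genotypes depended on the female WT PFF library. Without it, the only WT PFF library is that of males, which stands apart. The median log2 fold change of all genes then went from 0.80 to 1.45 in macrophages and from -0.01 to 0.01 in microglia. That difference in PFF effect could not be fitted without female CD163KO MONO. The population fit pairs the 2 libraries of a combination as a block, and additive terms in its place gave 2672 calls and the same 6 members. The labels hold no replicate numbers. Within a population, libraries that differ only in treatment, genotype or sex were paired as a block in an alternative added after seeing the data, and 0 of 7 members were called by edgeR for each, as without it (over all genes at most 3 calls, in microglia between the sexes).

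Counts of members past a difference of 1 in single pairs moved by over 1.5 times, or from 0, in 11 of 36 cases, and in the others by at most 1. With FPKM as deposited the macrophage counts became 4 for PFF against MONO in WT females and 2 in CD163KO females (1 each as reported, and in CD163KO females 2 higher in place of 1 lower), 2 for CD163KO against WT in MONO females (1 as reported) and 1 in PFF females (0 as reported). The direction also turned in WT males, from 1 higher and 2 lower to 2 higher and 0 lower with PFF, and for CD163KO against WT in PFF males, from 2 higher to 2 lower. For CD163KO against WT in PFF females the microglia count became 1, from 0, with FPKM as deposited and with a pseudocount of 0.1. With a pseudocount of 5 the microglia counts fell to 2 for PFF against MONO in WT females (from 4), 1 in CD163KO females (from 2) and 1 in WT males (from 2), and for CD163KO against WT to 0 in MONO females (from 2) and 1 in PFF males (from 2). The few counts of most members in microglia limit what could be detected there.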
